A study of Mus musculus with 48 samples.

Results

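Transcripts of 10 circadian clock genes were followed in mice lacking Tia1, the gene of the RNA-binding stress granule protein TIA-1, and in wild-type (WT) mice. The genes were Dbp, Per1, Per2, Per3, Nr1d2, Ciart, Arntl, Clock, Npas2 and Cry1. All probe sets whose platform annotation carried one of these symbols were taken. They came to 21 probe sets that name 1 gene, among 45037 tested, and to 10 genes of the 17097 that such probe sets cover. 1 further probe set names both Per2 and 9830107B12Rik and was not used to read Per2. Each gene was read by its brightest probe set. Other probe sets are given beside it for Per2, Per3, Clock and Arntl in liver and for Npas2 and Nr1d2 in cerebellum.

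The molecular clock of mammals is a feedback loop of transcription that runs in nearly every cell. CLOCK, or its relative NPAS2, pairs with ARNTL (also called BMAL1) and switches on genes that carry E-boxes, among them the Per and Cry genes, whose proteins return to the nucleus and repress that pair. Nuclear receptors of the REV-ERB family, to which the Nr1d2 product belongs, repress Arntl, and the PAR-bZIP factor DBP carries the rhythm to output genes through D-boxes. In mouse liver, transcripts of Dbp, the Per genes, Ciart and Nr1d2 are known to be high in the later part of the day, and those of Arntl, Clock and Npas2 around the end of the night. The evening genes (Dbp, Per2, Per3, Ciart and Nr1d2) and the morning genes (Arntl, Clock and Npas2) are set against each other below.

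Liver, cerebellum, midbrain and spinal cord were profiled in KO and WT mice at 6 and at 3 months of age, with 3 mice in each of the 16 groups and 48 Affymetrix arrays in all. In the KO mice, homologous recombination at exon 4 of Tia1 shortens the mRNA and removes the protein in the whole animal, and the line had been crossed onto C57BL6/J for many generations and bred in homozygous matings. The series description calls the WT mice littermates, whereas the study's methods name C57BL6/J mice bought from The Jackson Laboratory. All mice lived in 12 h of light and 12 h of darkness with free access to food. The hour at which each mouse was killed is not given in the sources used here, so that genotype and hour of killing cannot be told apart. Label numbers 122970, 122972 and 122973 for KO and 1, 2 and 3 for WT recur at both ages, and the 12 mice were treated as separate animals that each gave 4 tissues. The p-values below rest on the spread between mice within groups, pooled for each probe set over all 16 groups. Each mouse enters that spread with its 4 tissues, and the spread of the mice of 1 comparison alone is not what they measure.

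Signals are given as log2 values after robust multi-array averaging (RMA), the normalization that the submitters used. Array medians lay between 3.95 and 4.32, and replicate arrays correlated at 0.985 or higher. The Tia1 probe set at exon 4 separated KO from WT in all 8 comparisons (5.14 to 6.61 in KO and 7.49 to 8.41 in WT nervous tissues). In liver it was dimmer and the gap was small, with 4.56 to 5.26 in KO and 5.31 to 5.47 in WT at 6 months. At 3 months liver signals were 4.63 to 4.76 in KO and 5.18 to 5.63 in WT. The mean over each list of marker genes of a labelled tissue was highest in that tissue, though not every single marker was. The midbrain array of the KO mouse 122970 at 6 months reached 7.50 on the mean of 4 cerebellar markers, against 5.59 to 6.33 in the other midbrain arrays. All 48 arrays had signals of the Y-linked gene Eif2s3y between 7.07 and 8.80 and of Xist between 2.66 and 3.74. The 3-month WT mice stood apart in Nnt, a mitochondrial transhydrogenase gene that carries a deletion in C57BL/6J mice. Nnt was 0.91 to 1.27 lower (log2) in 6-month than in 3-month WT mice across the 4 tissues, and the KO minus WT difference in Nnt was -0.12 to 0.13 at 6 months and -1.19 to -0.89 at 3 months. Comparisons that use the 3-month WT mice therefore set animals against each other that also differ in Nnt, and the part of this in the values below was not tested.

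E-boxes, D-boxes and binding elements of the ROR nuclear receptors were looked for in the RefSeq promoters of the genes (GRCm38.p6, 250 bases before to 50 bases after each start). The letters searched were CACGTG for the E-box, TTATGTAA or TTACGTAA for the D-box and TAGGTCA for the ROR element, on both strands. 13 promoters were found for 9 of the 10 genes, none of them for Per2. An E-box stood in promoters of Per1, Ciart and Cry1, and E-boxes occurred in 7.15% of all 32851 promoters of this length. A D-box stood in the Per3 promoter alone (1.06% of all promoters), and a ROR element in one of the 2 promoters of Arntl (2.61%). The promoters of Dbp, Nr1d2, Clock and Npas2 held none of these letters, which says nothing of sites outside the window. The stretches around each match are printed because they hold the elements through which the loop is known to act, with the motif in capitals. Starts and ends are positions in GRCm38.p6, and each sequence is given 5′ to 3′ on the strand of its gene. A match of letters does not show that a factor binds there.
Ciart, chr3:95882247-95882306, minus strand, 2 E-boxes: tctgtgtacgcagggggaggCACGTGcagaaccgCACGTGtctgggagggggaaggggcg
Ciart, chr3:95882319-95882364, minus strand, 1 E-box: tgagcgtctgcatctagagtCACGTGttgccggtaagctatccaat
Per1, chr11:69098763-69098808, plus strand, 1 E-box: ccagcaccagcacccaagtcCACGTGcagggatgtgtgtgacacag
Cry1, chr10:85185089-85185134, minus strand, 1 E-box: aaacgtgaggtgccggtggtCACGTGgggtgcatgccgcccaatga
Per3, chr4:151044796-151044890, minus strand, 2 D-boxes: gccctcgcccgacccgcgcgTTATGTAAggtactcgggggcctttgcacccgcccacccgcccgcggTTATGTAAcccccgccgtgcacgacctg
Arntl, chr7:113207533-113207555, plus strand, 1 ROR element just after the start: gcagaaagTAGGTCAgggacgga

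Levels of the 10 genes differed between tissues. Relative to the mean of the nervous tissues, liver was higher in Dbp (1.31, 2.49-fold), Ciart (1.13, 2.19-fold), Per2 (0.60) and Per3 (0.20), and lower in Arntl (-2.34, 5.06-fold), Npas2 (-1.40), Clock (-1.01, 2.02-fold), Cry1 (-0.76) and Nr1d2 (-0.40). These 9 passed limma's test at an adjusted p under 0.05, as did 88.5% of all probe sets, and Per1 did not (0.11, adjusted p = 0.194). Arntl had a mean of 4.47 in liver (3.62 to 5.39 over 12 arrays), 7.58 in cerebellum, 6.80 in midbrain and 6.05 in spinal cord. Npas2 had a mean of 3.07 in liver (2.75 to 3.57), close to the lowest signals of the array, so that its differences are given with no fold, and its highest mean was 4.98, in midbrain.

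**Figure D1:**
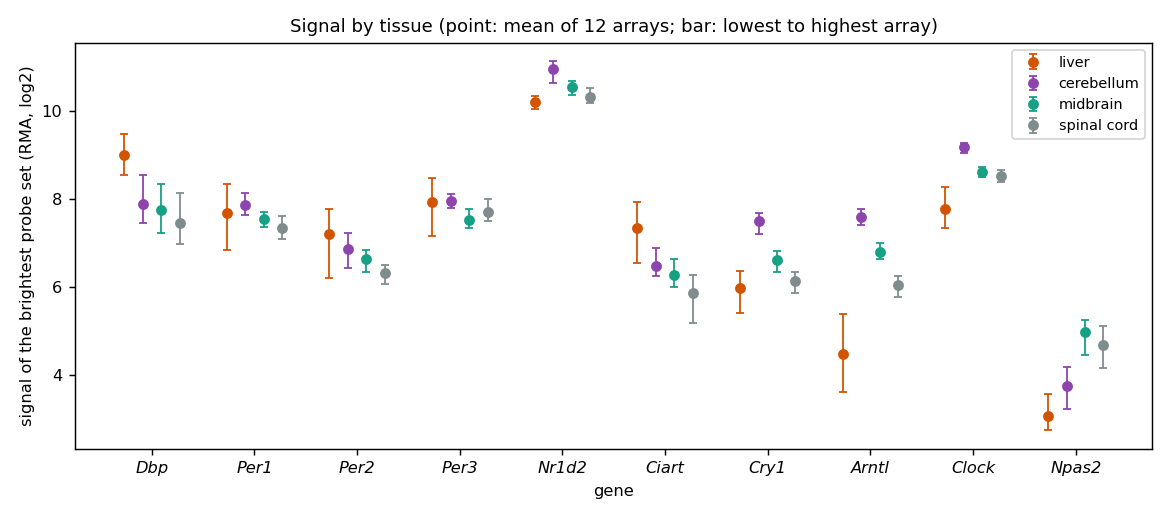
Signal of the brightest probe set of each gene (RMA, log2) in liver, cerebellum, midbrain and spinal cord. Points are means of 12 arrays and bars run from the lowest to the highest array. Colours are to be compared within a gene and not between genes. Arntl, Clock and Npas2 had their lowest mean in liver, and Dbp, Ciart and Per2 their highest.

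Among the nervous tissues, cerebellum was higher than spinal cord in 9 of the 10 genes and lower in Npas2 (-0.92), and all 10 passed (60.7% of all probe sets). Arntl (1.53, 2.89-fold) and Cry1 (1.38, 2.60-fold), which encodes a cryptochrome repressor, differed most. Cerebellum was also higher than midbrain in 8 genes and lower in Npas2 (-1.23), while Ciart did not pass (0.20, adjusted p = 0.0781; 55.3% of all probe sets passed). Midbrain exceeded spinal cord in 7 genes and was lower in Per3 (-0.17), with Per1 and Clock not passing (41.4% of all probe sets passed). The order of Dbp levels was liver 9.01, cerebellum 7.90, midbrain 7.74 and spinal cord 7.44, and both steps among the nervous tissues passed the test although their ranges overlapped. Liver was tested against the mean of the nervous tissues and not against cerebellum alone.

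Dbp was lower in KO than in WT mice in all 8 comparisons of means, and 7 of them passed. Dbp encodes D-box binding protein, the output factor of the clock. In whole tissue, fewer cells that express a gene and less RNA per cell cannot be told apart. In cerebellum at 6 months, Dbp signals were 7.45, 7.54 and 7.49 in KO mice, against 8.05, 7.96 and 7.92 in WT mice, a difference of -0.48 (SE 0.10, 1.39-fold, adjusted p = 0.0136). In 3-month mice they were 7.60, 7.65 and 7.64 in KO and 8.55, 8.49 and 8.40 in WT cerebellum (-0.85, 1.80-fold, adjusted p = 4.6e-07). Every KO cerebellum lay below every WT cerebellum of either age. The call at 6 months was lost without KO mouse 122970 or 122973 or without WT mouse 1 or 2, when the adjusted p was 0.0799 to 0.101.

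In midbrain at 6 months, Dbp signals were 7.41, 7.25 and 7.23 in KO and 7.96, 7.88 and 7.79 in WT mice (-0.58, 1.50-fold, adjusted p = 0.00111). At 3 months they were 7.33, 7.59 and 7.56 in KO and 8.30, 8.23 and 8.33 in WT mice (-0.79, 1.73-fold, adjusted p = 4e-06). The groups did not overlap at either age, and without the mouse whose midbrain array carried cerebellar markers the difference at 6 months was -0.64 (adjusted p = 0.00151). In spinal cord at 6 months the signals were 7.05, 6.97 and 7.03 in KO and 7.72, 7.74 and 7.46 in WT mice (-0.63, 1.54-fold, adjusted p = 0.000303). In spinal cord at 3 months they were 7.12, 7.19 and 7.12 in KO, against 7.95, 7.83 and 8.14 in WT mice (-0.83, 1.77-fold, adjusted p = 7.89e-07). The highest KO spinal cord, at 7.19, stayed below the lowest WT spinal cord, at 7.46. The calls in midbrain and spinal cord, and that in cerebellum at 3 months, were kept without any 1 of the 6 mice compared and with each tissue fitted alone.

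In liver the Dbp difference was smaller. At 6 months the signals were 8.54, 8.86 and 8.84 in KO and 9.15, 8.83 and 8.77 in WT livers, so that the groups overlapped (-0.17, adjusted p = 0.273). At 3 months they were 8.95, 9.14 and 8.86 in KO and 9.48, 9.35 and 9.31 in WT livers and did not overlap (-0.40, 1.32-fold, adjusted p = 0.00645). That call was lost without KO mouse 122973 (adjusted p = 0.0564) and with liver fitted alone (adjusted p = 0.32). The KO minus WT difference of Dbp in liver exceeded the mean of the nervous tissues by 0.39 at 6 months (adjusted p = 0.0258) and by 0.43 at 3 months (adjusted p = 0.017), so that the reduction was smaller in liver at both ages.

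**Figure D2:**
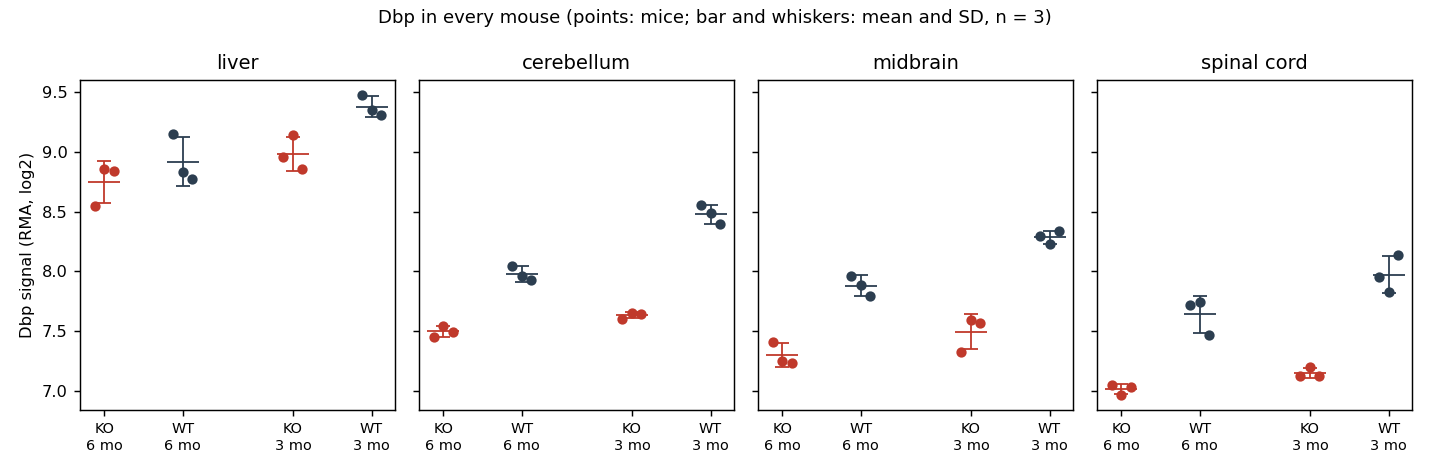
Dbp signal (RMA, log2) in every mouse, in panels by tissue, with KO left of WT within each age. Points are mice, and bars with whiskers are the mean and SD of 3 mice. KO and WT mice do not overlap in any panel or age except liver at 6 months.

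Dbp was alone among the 10 genes in being called in midbrain and spinal cord. In midbrain 1 of 10 genes passed at each age, where 0.142% of all probe sets passed at 6 months and 0.242% at 3 months. In spinal cord it was again 1 of 10 at each age (0.162% of all probe sets at 6 months and 0.311% at 3 months). In cerebellum 2 of 10 passed at each age, Dbp and Npas2, where 0.182% of all probe sets passed at 6 months and 0.548% at 3 months. The genes had been chosen with earlier results of these data known.

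Npas2, which can stand in for Clock as the partner of ARNTL and is known from the forebrain, was higher in KO cerebellum. At 6 months the signals were 4.16, 3.99 and 4.14 in KO and 3.42, 3.48 and 3.45 in WT cerebellum (0.65, adjusted p = 0.0351). The 3-month signals were 4.18, 3.94 and 4.02 in KO and 3.24, 3.57 and 3.47 in WT cerebellum (0.62, adjusted p = 0.0273). The groups did not overlap at either age, but these signals lie close to the median of an array. The call was lost without any 1 of the 6 mice at 6 months (adjusted p up to 0.294), and at 3 months without WT mouse 1 or any of the 3 KO mice (up to 0.174). The other Npas2 probe set differed by 0.17 at both ages and did not pass. Npas2 means were also higher in KO mice at 6 months in midbrain (0.55, adjusted p = 0.15) and spinal cord (0.58, adjusted p = 0.102), with no overlap of the groups, and neither passed. Over the nervous comparisons the mean of its brightest probe set was higher in KO in 5 and lower in 1 (-0.16).

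The Per genes, which encode the PERIOD repressors, did not pass in any nervous tissue. Per3 differed by -0.30 to 0.03 over the 6 nervous comparisons, with KO and WT mice apart in 5 of them. In midbrain at 3 months, Per3 signals were 7.49, 7.48 and 7.41 in KO and 7.69, 7.77 and 7.69 in WT mice (-0.26, adjusted p = 0.413). The 2 groups did not overlap, nor did they in spinal cord at 3 months (-0.30, adjusted p = 0.263). Per2 ranged from -0.23 to 0.20 and Per1 from -0.01 to 0.24. These are values of the brightest probe sets. A dimmer Per3 probe set had overlapping groups in cerebellum, with means of 7.28 in KO and 7.10 in WT mice at 6 months. At 3 months its means were 7.24 in KO and 7.29 in WT cerebellum.

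Ciart, which encodes a repressor of the CLOCK and ARNTL pair and carries 3 E-boxes in its promoter, had a lower mean in KO in all 8 comparisons and passed in none. Its differences ran from -0.57 in spinal cord at 6 months to -0.14 in midbrain at 3 months. In spinal cord at 6 months the signals were 6.03, 5.49 and 5.18 in KO and 6.19, 6.19 and 6.05 in WT mice (SE 0.19, adjusted p = 0.722). The KO mice were spread over a wider range than the WT mice there, and the groups did not overlap.

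Nr1d2, the REV-ERB beta gene, differed by -0.21 to 0.03 and Cry1 by -0.30 to 0.17 over all 8 comparisons, and neither passed in any. Clock differed by -0.14 to 0.06 in the nervous tissues. Arntl had a higher mean in KO in each of the 6 nervous comparisons (0.01 to 0.27), and none passed. Counted without a test, KO and WT mice did not overlap in 2 of 10 genes in cerebellum at 6 months (14.1% of all probe sets) and in 5 at 3 months (14.4%). In midbrain they did not overlap in 7 genes at 6 months (14.6%) and in 4 at 3 months (22.4%), and in spinal cord in 6 at 6 months (11.5%) and in 4 at 3 months (17.1%).

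**Figure D3:**
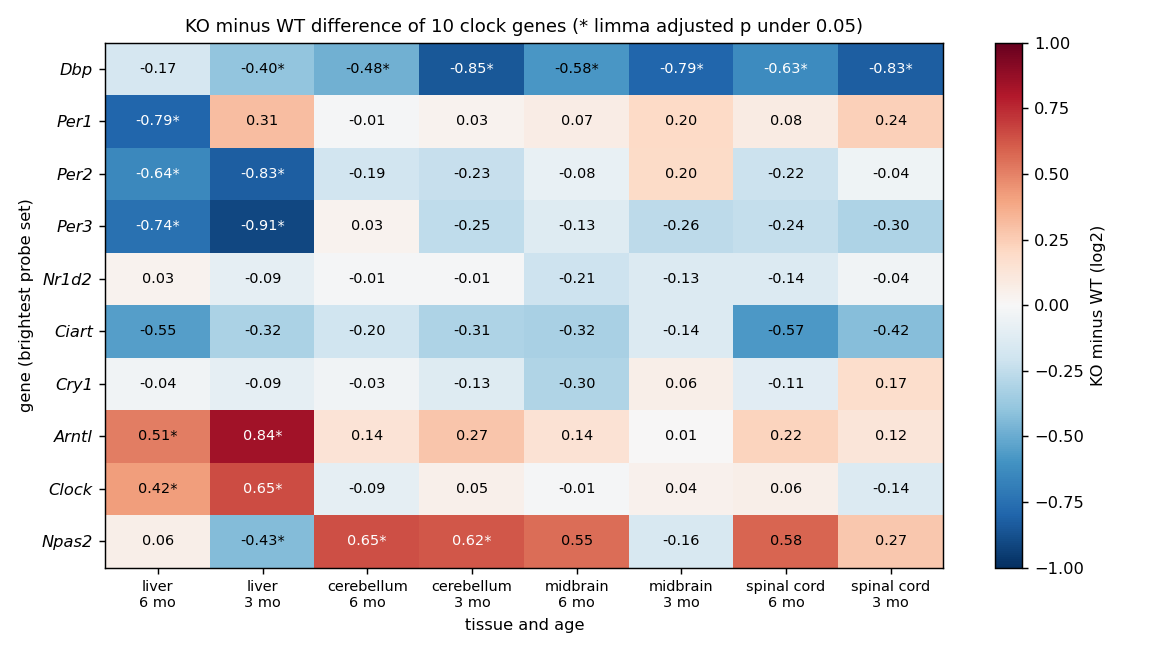
KO minus WT difference (log2) of the brightest probe set of each gene, by tissue and age. Blue stands for lower and red for higher in KO, and an asterisk marks a limma adjusted p under 0.05. Dbp is lower throughout, while Per2, Per3, Arntl and Clock are marked in liver alone.

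In liver more of the genes differed. At 6 months 5 of 10 passed, with Arntl and Clock higher and Per1, Per2 and Per3 lower in KO. At 3 months 6 of 10 passed, with Arntl and Clock higher and Dbp, Per2, Per3 and Npas2 lower. Of all probe sets, 11.5% passed in liver at 6 months and 9.44% at 3 months. The fit shares 1 estimate of the spread between tissues, and liver was the tissue with the largest spread (median SD within groups 0.218, against 0.115 to 0.133 in the nervous tissues). With liver fitted alone, 273 probe sets passed at 6 months and none of the 10 genes, and 169 passed at 3 months with Per3 alone of the 10.

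Per3 had signals of 7.39, 7.70 and 7.74 in KO and 8.38, 8.47 and 8.20 in WT livers at 6 months (-0.74, SE 0.09, 1.67-fold, adjusted p = 2.74e-07). At 3 months they were 7.16, 7.44 and 7.68 in KO and 8.38, 8.23 and 8.40 in WT livers (-0.91, 1.88-fold, adjusted p = 3.7e-09). All 6 KO livers lay below all 6 WT livers. With liver fitted alone the adjusted p was 0.0531 at 6 months and 0.0275 at 3 months. Of the 4 other Per3 probe sets, 1 passed at both ages (-0.78 at 6 months and -0.82 at 3 months), 1 at 6 months alone (-0.57, against 0.08 at 3 months) and 2 at neither age (-0.47 to -0.03).

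Per2 signals were 6.75, 7.24 and 7.22 in KO and 7.72, 7.76 and 7.65 in WT livers at 6 months (-0.64, SE 0.15, 1.56-fold, adjusted p = 0.00429). The 3-month signals were 6.21, 6.89 and 6.70 in KO and 7.37, 7.64 and 7.28 in WT livers (-0.83, 1.78-fold, adjusted p = 0.000348). The groups did not overlap at either age, and the WT livers at 6 months lay within 0.11 of each other. The other Per2 probe set gave -0.67 and -0.85 at 6 and 3 months and passed at both. With liver fitted alone, the adjusted p of the brightest probe set was 0.176 and 0.107.

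Clock, which encodes the histone acetyltransferase partner of ARNTL, had signals of 7.79, 8.10 and 7.90 in KO and 7.48, 7.48 and 7.59 in WT livers at 6 months (0.42, SE 0.09, 1.34-fold, adjusted p = 0.00182). At 3 months they were 8.28, 7.81 and 8.28 in KO and 7.35, 7.62 and 7.44 in WT livers (0.65, 1.57-fold, adjusted p = 4.4e-06). Each KO liver was above each WT liver. Of the other 3 Clock probe sets, 2 passed at both ages (0.45 and 0.68 at 6 months, 0.90 and 0.54 at 3 months) and 1 at neither. With liver fitted alone the adjusted p was 0.278 at 6 months and 0.106 at 3 months.

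Arntl was dim in liver and varied between mice. At 6 months the signals were 5.01, 4.70 and 4.71 in KO and 4.03, 4.53 and 4.32 in WT livers, with no overlap (0.51, SE 0.17, 1.43-fold, adjusted p = 0.0401). Of the 6 mice compared, the call was kept without WT mouse 2 and lost without any other (adjusted p up to 0.232), and it was also lost without WT mouse 1 of 3 months, through the shared spread (adjusted p = 0.0521). At 3 months the signals were 5.39, 4.10 and 4.97 in KO and 4.09, 3.62 and 4.23 in WT livers (0.84, 1.79-fold, adjusted p = 0.000835). KO mouse 122972, at 4.10, lay among the WT livers, so that the groups overlapped. The other Arntl probe set did not pass at either age (-0.06 and 0.17), and with liver fitted alone the adjusted p of the brightest was 0.521 and 0.299.

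Per1 is a Period gene that also answers to glucocorticoids. Its signals were 7.97, 6.85 and 7.22 in KO and 8.35, 7.76 and 8.29 in WT livers at 6 months (-0.79, SE 0.19, 1.73-fold, adjusted p = 0.00432). The highest KO liver exceeded the lowest WT liver, and the call was lost without KO mouse 122972 (adjusted p = 0.0762) and with liver fitted alone (0.273). At 3 months the signals were 7.82, 7.53 and 7.99 in KO and 7.29, 7.28 and 7.84 in WT livers (0.31, adjusted p = 0.338). Npas2 signals at 3 months were 3.09, 2.75 and 2.88 in KO and 2.86, 3.57 and 3.57 in WT livers (-0.43, adjusted p = 0.0481). These are among the dimmest signals of the array, the groups overlapped, and the call was lost without KO mouse 122972 or 122973 or WT mouse 2 or 3 (adjusted p up to 0.245).

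**Figure D4:**
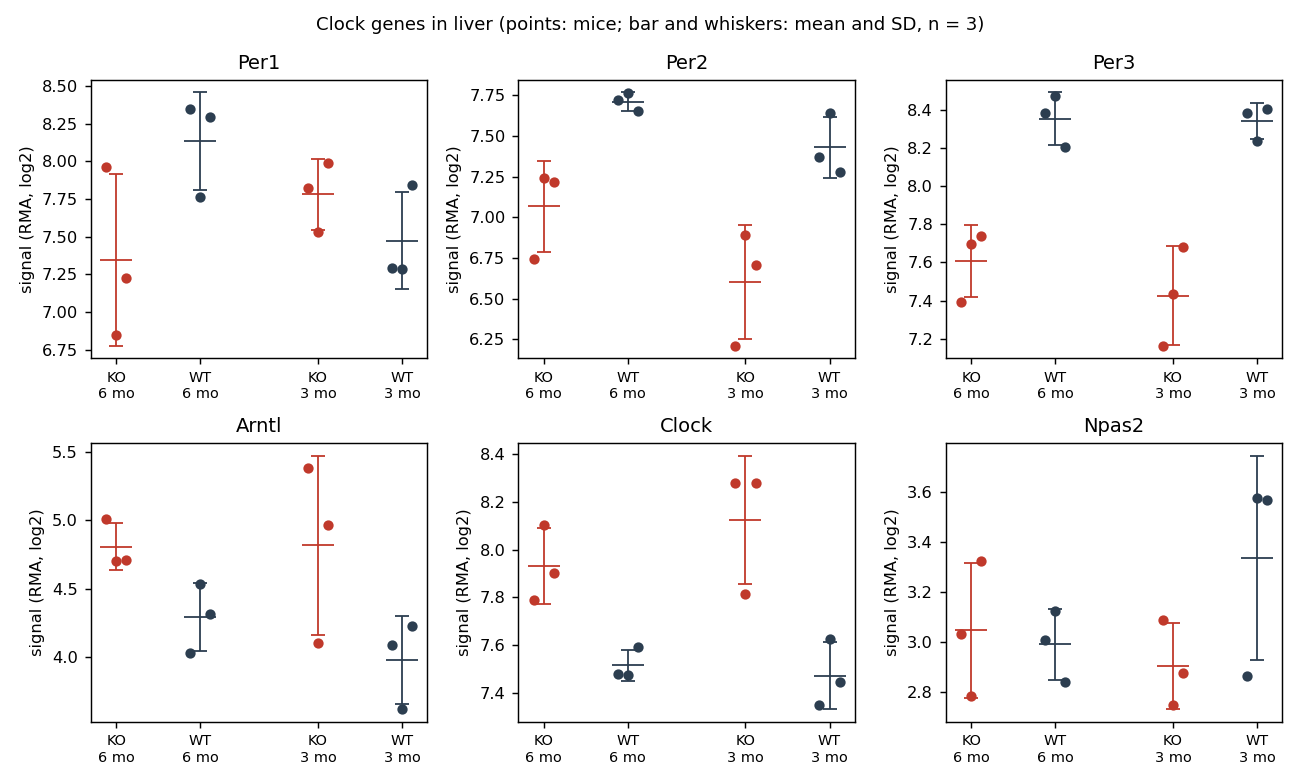
Signals (RMA, log2) of 6 clock genes in liver, with KO left of WT within each age. Points are mice, and bars with whiskers are the mean and SD of 3 mice. Per2 and Per3 separate lower KO from higher WT livers at both ages and Clock separates higher KO from lower WT livers, whereas the groups overlap in Per1 at both ages and in Arntl at 3 months.

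In liver, KO and WT mice did not overlap in 4 of the 10 genes at 6 months (18.2% of all probe sets) and in 5 at 3 months (15.8%). The KO minus WT difference in liver was set against its mean over the nervous tissues in a contrast added after the data had been seen. At 6 months 5 of 10 genes passed (7.13% of all probe sets), Clock at 0.43 (adjusted p = 0.0079), Per3 at -0.63 (adjusted p = 0.000101), Per1 at -0.84 (adjusted p = 0.0131) and Npas2 at -0.54 (adjusted p = 0.0386) beside Dbp. At 3 months 6 of 10 passed (6.01%), with Arntl at 0.71 (adjusted p = 0.0227), Clock at 0.67 (adjusted p = 5.96e-05), Per2 at -0.80 (adjusted p = 0.00393), Per3 at -0.64 (adjusted p = 0.000104) and Npas2 at -0.67 (adjusted p = 0.00935) beside Dbp. Clock and Per3 thus moved further apart from WT in liver than in the nervous tissues at both ages, and Dbp less far. The calls of Per3 at both ages and of Per2 and Clock at 3 months were kept with any single mouse of the 6 omitted. At 3 months the call of Dbp was lost without KO mouse 122970 or 122972 or WT mouse 3 (adjusted p up to 0.093), that of Arntl without KO mouse 122970 or 122973 or WT mouse 2 (up to 0.227), and that of Npas2 without KO mouse 122972 or WT mouse 2 or 3 (up to 0.0751). At 6 months the call of Dbp was lost without KO mouse 122972 or 122973 or WT mouse 2 or 3 (up to 0.138), that of Per1 without KO mouse 122972 or 122973 or WT mouse 1 (up to 0.087), that of Clock without KO mouse 122972 or WT mouse 1 (up to 0.0646), and that of Npas2 without KO mouse 122970 or 122972 or WT mouse 1 or 2 (up to 0.177).

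Evening and morning genes were next averaged in each array, after the mean of each gene over the 12 arrays of its tissue had been taken off. This index is a description of chosen genes and was not tested. The evening mean minus the morning mean was lower in KO than in WT mice in all 8 comparisons, and KO and WT arrays did not overlap in any of them. In liver it was -0.36 ± 0.06 in KO and 0.38 ± 0.19 in WT at 6 months, and -0.44 ± 0.53 in KO and 0.42 ± 0.20 in WT at 3 months (SD, n = 3 mice each). In cerebellum it was -0.23 ± 0.06 in KO and 0.17 ± 0.12 in WT at 6 months, and -0.29 ± 0.05 in KO and 0.36 ± 0.11 in WT at 3 months. The gap between genotypes was thus larger in cerebellum at 3 months (-0.65) than at 6 months (-0.40), whereas the spinal cord had the reverse order (-0.65 at 6 months and -0.41 at 3 months). These changes with age were not tested. Without Npas2, whose cerebellar signals averaged 3.75, below the array medians, the gap in cerebellum was -0.49 at 3 months and -0.19 at 6 months.

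In midbrain the index was -0.24 ± 0.04 in KO and 0.25 ± 0.05 in WT at 6 months, and -0.10 ± 0.03 in KO and 0.09 ± 0.10 in WT at 3 months. The evening mean was lower in KO in all 8 comparisons with no overlap. The morning mean was higher in KO in 7 of them and did not overlap in 5, the exceptions being midbrain at 3 months (-0.04), spinal cord at 3 months (0.08) and liver at 3 months (0.35). Its genes did not move alike in the nervous tissues. There the KO minus WT differences ran from -0.16 to 0.65 in the dim Npas2, from 0.01 to 0.27 in Arntl and from -0.14 to 0.06 in Clock. Clock was lower in KO in 3 nervous comparisons and higher in 3. The morning mean was not taken without Npas2. KO mouse 122972 at 3 months stood apart in liver, with an index of 0.09 against -0.97 and -0.44 in the other 2 KO livers of that age. Its liver signals of Arntl and Clock were the lowest, and that of Per2 the highest, of the 3.

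**Figure D5:**
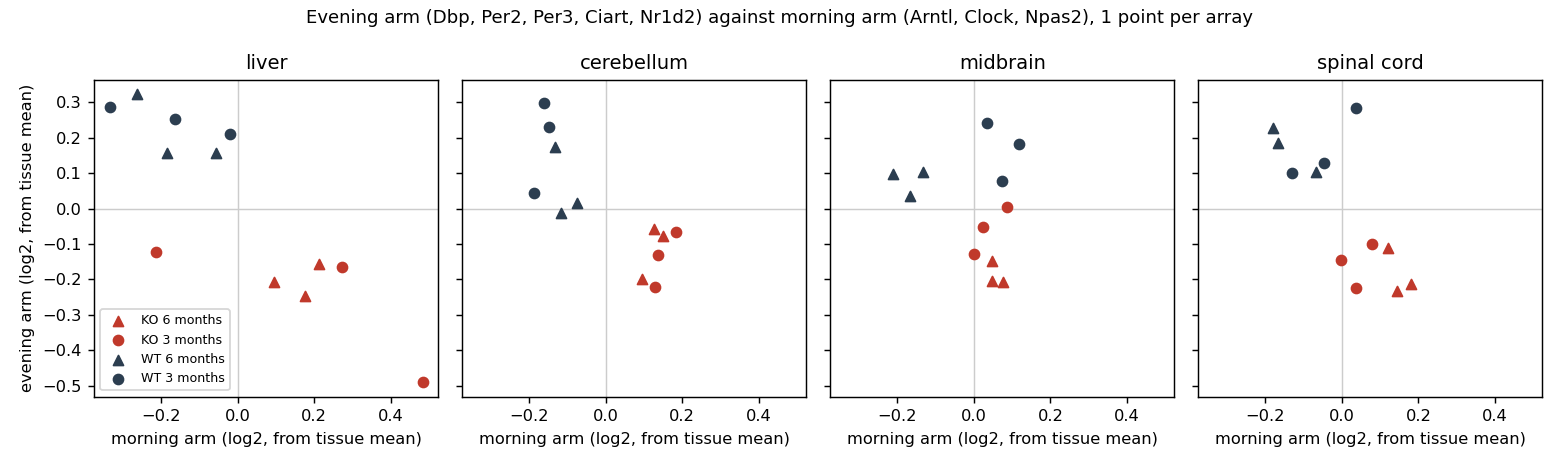
Mean of the evening genes against mean of the morning genes in each array (log2, each gene relative to its mean in the tissue), in panels by tissue. Red marks KO and dark blue WT, and triangles mark 6 and circles 3 months. KO arrays lie below WT arrays in each tissue, and 1 KO liver at 3 months lies left of the other KO livers.

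Since Dbp belongs to the evening genes, the index was also taken without it, and its KO minus WT difference was then between -0.89 in liver and -0.05 in midbrain, both at 3 months, over the 8 comparisons. Across the 12 liver arrays, Per2 and Per3 correlated at 0.89, Arntl and Clock at 0.74, Per3 and Clock at -0.83 and Per2 and Arntl at -0.75. With group means removed, the same 12 arrays gave 0.62 for Per2 and Per3, 0.39 for Arntl and Clock, -0.01 for Per3 and Clock and -0.80 for Per2 and Arntl. Across the 36 nervous arrays, Dbp correlated with Per3 at 0.83, with Ciart at 0.66, with Npas2 at -0.60 and with Arntl at -0.56. With group means removed, the same 36 arrays gave 0.16 for Per3, 0.42 for Ciart, -0.09 for Npas2 and -0.08 for Arntl. These arrays share mice, and their correlations before the removal include the difference between genotypes.

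Age was compared within each genotype. In the KO mice no gene passed in cerebellum, midbrain or spinal cord (0.0844%, 0.00444% and 0.091% of all probe sets). In KO liver 1 of 10 passed (10.9% of all probe sets), which was Per2, with 6.75, 7.24 and 7.22 at 6 months, against 6.21, 6.89 and 6.70 at 3 months (0.47, 1.38-fold, adjusted p = 0.0437). The ages overlapped, and the call was lost without any of 4 of the 6 mice (adjusted p up to 0.296) and with liver fitted alone (0.374). The 4 were mice 122970 and 122973 of 3 months and mice 122972 and 122973 of 6 months.

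In WT cerebellum 1 of 10 passed (1.13% of all probe sets), Dbp, which was lower at 6 than at 3 months (-0.50, 1.42-fold, adjusted p = 0.00362). In WT liver 2 of 10 passed (10.7%), Dbp again lower at 6 months (-0.46, 1.38-fold, adjusted p = 0.00139) and Per1 higher (0.66, 1.58-fold, adjusted p = 0.0187). The ages did not overlap in Dbp in either tissue and did in Per1, and the Per1 call was lost without WT mouse 1 or 2 of 3 months or WT mouse 1 or 3 of 6 months (adjusted p up to 0.103). With liver fitted alone both liver calls were lost (adjusted p = 0.215 for Dbp and 0.387 for Per1). No gene passed in WT midbrain (0.258%) or WT spinal cord (0.242%). Nr1d2 was 2.01-fold lower in WT cerebellum at 6 months on its dimmer probe set (adjusted p = 0.00637) while its brightest probe set did not pass. These WT comparisons are the ones in which Nnt differed too.

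The KO minus WT difference at 6 months was compared with that at 3 months in the same fit. In liver 1 of 10 genes passed (7.14% of all probe sets). It was Per1, whose difference was -0.79 at 6 months and 0.31 at 3 months (-1.10, SE 0.27, adjusted p = 0.00833). The call was kept without any 1 of the 12 mice (adjusted p up to 0.0467) and lost with liver fitted alone (0.438). No gene passed in cerebellum (0.0577%), midbrain (0.0444%) or spinal cord (0.0533%). The Dbp difference was smaller at 6 than at 3 months in each of the 4 tissues, and none of these changes passed.

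Genes of 4 lists were read beside the clock genes. Of 17 other clock genes, 14 were measured by a probe set of their own. Among the 17 were Cry2, the ROR genes, the DEC repressors and the DBP relatives Tef and Hlf. None of the 14 passed in the 6 nervous comparisons, where 0.142% to 0.548% of all probe sets passed. In liver at 6 months, where 11.5% of all probe sets passed, 3 of 14 were lower in KO, the repressor gene Bhlhe40 (-0.45, adjusted p = 0.00475), Tef (-0.36, adjusted p = 0.00117) and the dim Arntl2 (-0.60, adjusted p = 0.0472). At 3 months, where 9.44% of all probe sets passed, 2 of 14 did so, and Bhlhe40 was lower (-0.89, adjusted p = 3.41e-07) and Hlf higher (0.46, adjusted p = 0.00195). The median of this list was -0.13 at 6 months and -0.10 at 3 months, against 0.00 over all probe sets at both ages. Of 9 measured clock output genes none passed in the 6 nervous comparisons (0.142% to 0.548% of all probe sets).

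In liver at 6 months 4 of the 9 output genes passed (11.5% of all probe sets), and Noct, a rhythmic phosphatase gene (-1.33, adjusted p = 2e-07), Wee1, a cell cycle kinase gene (-0.93, adjusted p = 7.28e-05), and Usp2, a deubiquitinase gene (-0.69, adjusted p = 0.0011), were lower in KO, and Elovl3, a fatty acid elongase gene, was higher (0.54, adjusted p = 0.00189). At 3 months 4 of 9 passed (9.44% of all probe sets), and Elovl3 (1.29, adjusted p = 6.63e-10), Cyp7a1, the rate-limiting enzyme of bile acid synthesis (0.93, adjusted p = 2.22e-05), and Lpin1, a phosphatidate phosphatase gene (0.85, adjusted p = 7.25e-05), were higher and Wee1 lower (-0.77, adjusted p = 0.000961). The median of the 9 output genes was -0.17 at 6 months and -0.06 at 3 months, against 0.00 over all probe sets.

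Glucocorticoids set Per1 and other clock genes, so targets of the glucocorticoid receptor were read beside them. At 3 months Tsc22d3 was higher in KO cerebellum (0.48), midbrain (0.55) and spinal cord (0.54), as was Sgk1 (1.03, 1.39 and 1.60), and Fkbp5 in cerebellum (1.14). They were 3 of 8 that passed in cerebellum (0.548% of all probe sets), 2 in midbrain (0.242%) and 2 in spinal cord (0.311%). At 6 months Tsc22d3 in cerebellum (0.52, adjusted p = 0.0387) was the 1 of 8 that passed in a nervous tissue. In those tissues 0.142% to 0.182% of all probe sets passed. With age, Sgk1 was the 1 of 8 called in WT midbrain (0.258% of all probe sets) and in WT spinal cord (0.242%), higher at 6 months. None of the 8 was called with age in WT cerebellum (1.13%) or in a KO nervous tissue (0.00444% to 0.091%). The KO minus WT difference of Sgk1 in spinal cord was called lower at 6 than at 3 months (0.0533%). The 3-month WT mice also differed in Nnt, and the part of this was not tested. In liver 4 of 8 were higher in KO at 3 months (Zbtb16 1.63, Ddit4 1.29, Fkbp5 0.89 and Klf9 0.28), where 9.44% of all probe sets passed. At 6 months 4 of 8 passed against 11.5% of all probe sets, and Tsc22d3 (-1.01), Zbtb16 (-0.96) and Tat (-0.78) were lower and Fkbp5 higher (1.11). With age, 3 of 8 were called higher at 6 months in WT liver (Tsc22d3, Zbtb16 and Tat, 10.7% of all probe sets). In KO liver 3 of 8 were called lower at 6 months (Tsc22d3, Ddit4 and Tat, 10.9%). The median of the 8 was 0.25 to 0.64 over the 6 nervous comparisons, and -0.49 at 6 months and 0.41 at 3 months in liver, against -0.01 to 0.02 over all probe sets.

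Immediate early genes, which respond within minutes to stimuli and to handling, were lower in KO liver at 6 months in 5 of 10 cases, where 11.5% of all probe sets passed, with Nr4a1 at -2.63 (6.18-fold, adjusted p = 1.94e-05) and Dusp1 at -1.15. The median of the 10 was -0.64 there, against 0.00 over all probe sets, and -0.42 to 0.01 in the 6 nervous comparisons. Per1 was lower in that same comparison. At 3 months 0 of the 10 immediate early genes passed in liver (9.44% of all probe sets), and the Per1 difference was 0.31. With age, 2 of the 10, Fos and Nr4a1, were called higher at 6 months in WT liver (10.7%) and 0 were called in KO liver (10.9%). In spinal cord at 3 months Egr2 was higher (1.07, adjusted p = 0.00283), as 1 of 10 where 0.311% of all probe sets passed. None of the 10 passed in the other nervous comparisons. The part of these genes in the Dbp and Per1 differences was not tested.

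The genes with the pattern most like that of Dbp were sought among 9504 genes with a mean signal of at least 5, over the 48 arrays after tissue means had been removed. Pcyox1 (r = 0.82), Nnt (0.81), Nr3c1, the glucocorticoid receptor gene (0.80), Nfu1 (0.77) and the oligodendrocyte gene Opalin (0.76) came closest. Sult1a1 (-0.89), the lipid droplet gene Plin4 (-0.88), Mertk (-0.87), Angptl4 (-0.84) and Nde1 (-0.83) ran most against it. Pcyox1 is the next protein-coding gene to Tia1 on chromosome 6 and Nfu1 lies 10 such genes away (GRCm38.p6 annotation), while none of the 10 clock genes is on that chromosome.

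For Arntl the highest values were those of Lgalsl (0.78), Insig2 (0.74), Tcp11l2 (0.73), Gria4 (0.71) and Ccng2 (0.70), and the lowest those of Kctd7 (-0.81), Gpr37l1 (-0.75), Sbsn (-0.72), Ddx55 (-0.71) and Meg3 (-0.71). Over the 36 nervous arrays alone the Dbp values stayed at 0.81 to 0.90 and -0.84 to -0.92, while those of Arntl lay between -0.51 and 0.56, a smaller size than over all 48. The minimum mean signal was set over all 48 arrays, so that genes dim in liver could enter. In liver, where Arntl averaged 4.47, group means were 2.88 to 3.24 for Gria4 and 2.98 to 3.91 for Gpr37l1. Kctd7, Sbsn and Meg3 had liver groups with means under 5, while Lgalsl, Insig2, Tcp11l2, Ccng2 and Ddx55 were brighter than Arntl there. These correlations with Dbp and Arntl include the genotype difference and the 12 arrays of the 3-month WT mice that differed in Nnt.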

How the data were processed

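Total RNA was hybridised to Affymetrix HT Mouse Genome PM plates with a 3′ IVT kit. The deposited log2 values had been normalized by the authors with RMA in R 2.14.0, across all tissues, and were used as given, so that a difference is relative to the arrays' shared distribution. Of 45141 probe sets, 104 controls were left out. By the platform annotation 28898 probe sets name 1 gene, 551 several and 15588 none. A group-means model of 16 groups and 48 arrays was fitted with limma 3.58.1 (R 4.3.3, statmod 1.5.0), with Benjamini-Hochberg adjustment over 45037 probe sets per comparison and a threshold of 0.05, after tests on simulated data. Each gene was read by its brightest probe set that names 1 gene. Values by mouse are given for genes that passed, and ranges otherwise. From the other lists, genes that passed are named, up to 4 per list and liver comparison. Genes and lists were chosen with earlier results of these data known. The contrast of liver with the nervous tissues, and the likeness over the nervous arrays, were added after seeing the data. The number of arrays, 3 per group, limits the precision. Array signals have no read depth. Tissues of 1 mouse were treated as independent, although they were not wholly so. In their deviations from the group means, 14 of 72 pairs of tissues correlated over 0.1 (-0.0635 to 0.194, median 0.0511). With the mouse as a replicate block (consensus correlation 0.0303) no call of a clock gene was lost.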

Additional observations from a re-analysis of the deposited data

Results flagged for a closer look

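The KO minus WT difference of the Period gene Per1 in liver was 1 of 12 results where an effect differed between groups of samples. Each rested on a test of that difference. For Per1 the difference at 6 minus 3 months was -1.10 (limma adjusted p = 0.00833), a call that was lost with liver fitted alone (0.438). The other 11 set the KO minus WT difference in liver against its mean over the nervous tissues. That contrast was added after seeing the data, rests on the spread shared by all tissues and could not be fitted with liver alone. Its calls of Dbp and Npas2 at both ages, of Arntl at 3 months and of Per1 and Clock at 6 months were lost without single mice. Those of Per3 at both ages and of Per2 and Clock at 3 months were kept. For Dbp this was 0.39 at 6 months (adjusted p = 0.0258) and 0.43 at 3 months (adjusted p = 0.017). For Per3 it was -0.63 at 6 months (adjusted p = 0.000101) and -0.64 at 3 months (adjusted p = 0.000104). For Clock it was 0.43 at 6 months (adjusted p = 0.0079) and 0.67 at 3 months (adjusted p = 5.96e-05). For Npas2 it was -0.54 at 6 months (adjusted p = 0.0386) and -0.67 at 3 months (adjusted p = 0.00935), with liver signals near the lowest of the array. Per1 passed at 6 months alone (-0.84, adjusted p = 0.0131), and Per2 (-0.80, adjusted p = 0.00393) and Arntl (0.71, adjusted p = 0.0227) at 3 months alone. With 3 mice in a group, single mice were not tested as outliers.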

How the results depend on the processing

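Of 35 calls of single genes, none changed direction under the alternatives run. A change of at least 1.2-fold, required in addition, lost 0 of them, and a second quantile normalization within each tissue lost 1. With the mouse as a replicate block (consensus correlation 0.0303) the number of genes called stayed at 5 in liver at 6 months and 6 at 3 months, at 2 in cerebellum, and at 1 for midbrain as for spinal cord, at either age, and no call was lost. Between arrays with the same label number at both ages, 0 of 24 pairs correlated over 0.1, and that replicate block changed no count. Since only 14 of 72 pairs of tissues of 1 mouse correlated over 0.1, this check cannot show that pairing was absent. Mice were killed before their tissues were taken, so 1 mouse could not be sampled at both ages. With each tissue fitted alone, 0 of the 10 genes passed in liver at 6 months and 1 at 3 months, 2 in midbrain at 6 months, 0 in the age comparisons of KO and WT liver, 2 in that of WT midbrain, and 0 in liver for the change of the KO minus WT difference with age. At an adjusted p under 0.01, 0 genes passed in cerebellum at 6 months, 1 at 3 months, 0 with age in KO liver, 1 with age in WT liver and 2 for liver against nervous tissues at 6 months. A filter kept the 23518 probe sets whose mean was at least 5 in at least 1 tissue. It dropped Npas2 and left 1 gene in cerebellum at each age and 1 with age in WT midbrain. The mean of all probe sets of a gene left 1 in cerebellum at each age, 0 with age in KO liver and 2 with age in WT cerebellum. A trended and robust prior left 1 in cerebellum at 6 months and 1 with age in WT midbrain. Without 1 mouse at a time the KO minus WT counts were 3 to 6 in liver at 6 months, 0 to 2 in cerebellum at 6 months, 1 to 2 in cerebellum at 3 months, 1 to 2 in midbrain at 6 months, and 1 to 2 in spinal cord at 6 months. The counts with age were 0 to 3 in KO liver, 1 to 3 in WT liver and 0 to 1 in WT midbrain, those of the change with age in liver 1 to 3, and those of liver against nervous tissues at 6 months 1 to 5.

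The difference in the evening minus morning index kept its sign in each alternative run. Divided by each gene's SD it was, in SD units, -1.75 for liver, -1.13 for cerebellum, -2.48 for midbrain and -3.10 for spinal cord at 6 months, and -2.12 for liver, -2.90 for cerebellum, -0.89 for midbrain and -1.21 for spinal cord at 3 months. As the mean of all probe sets it was -0.57 in liver at 6 months and -0.29 in midbrain at 3 months. Without Dbp it was -0.52 in cerebellum at 3 months, -0.41 in midbrain at 6 months, -0.046 in midbrain at 3 months and -0.29 in spinal cord at 3 months. Without Per2 it was -0.29 in midbrain and -0.48 in spinal cord at 3 months, and without Nr1d2 it was -0.48 in spinal cord at 3 months. Without Clock it was -0.56 in cerebellum at 6 months and -0.78 at 3 months, -0.61 in midbrain at 6 months, and -0.76 in spinal cord at 6 months and -0.52 at 3 months. Without Npas2 it was -0.19 in cerebellum at 6 months and -0.49 at 3 months, -0.33 in midbrain at 6 months, and -0.50 in spinal cord at 6 months and -0.32 at 3 months. Tissue differences could not be fitted with each tissue alone or after normalization within tissues. The hour of killing, the source of the WT mice and the difference in Nnt move with the groups and cannot be told apart from genotype or age by these arrays where they coincide.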
